A study of Mus musculus with 4 samples.

Results

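The Peg13, Trappc9 and Kcnk9 domain is a cluster of imprinted genes on mouse chromosome 15, and CTCF binding across it was read from peak lists of adult cerebral cortex. Its members were 5 listed genes, Peg13, Trappc9, Kcnk9, Chrac1 and Ago2, with every peak summit between 50 kb outside the outermost of them on each side. That region spans chr15:72451089-73234935 (mm10, 783847 bp), and it held 16 of the 44672 summits in the list supported by both pools of mice. The listed genes were chosen by the scores, signal values and pool differences of their peaks in these lists, so those values are given as descriptions with no test.

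CTCF was mapped by ChIP-seq, which sequences the DNA pulled down with an antibody, in frozen left cerebral cortex of female B6CASTF1/J mice aged 2 months. The strain name stands for F1 hybrids of C57BL/6J and CAST/EiJ. All 4 libraries share that tissue, strain, sex, age and the CTCF antibody. Pool I and pool J each combined 4 cortex biosamples and gave 2 technical replicate libraries, which were merged before peaks were called. There is thus 1 value per pool, with no replicate spread and no test. The depth behind the lists is unknown. The lists do not separate the C57BL/6J and CAST/EiJ alleles, and peaks alone cannot check the tissue against marker genes.

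In an imprinted gene 1 parental copy is active and the other silent, and the choice is set by DNA methylation laid down in the egg or sperm at a differentially methylated region. In mouse brain the non-coding RNA Peg13, whose gene lies in an intron of Trappc9, is made from the paternal copy, and the region at its start is methylated on the maternal copy. Trappc9, Kcnk9, Chrac1 and Ago2 are expressed more from the maternal copy in brain. CTCF is a zinc finger protein that binds insulators and anchors chromatin loops, and methylated CpG (a C followed by a G) within some of its sites blocks binding, as is well known at H19. In human brain CTCF and cohesin have been found on the unmethylated copy of the PEG13 region.

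The sequences under the Peg13 start are given first, because the peak there held 2 summits and 2 matches to the CTCF motif. The motif was learned from strong peaks on other chromosomes and read TGGCCACCAGGGGGCGCTAG by its most frequent base at each position, and a match is a description of the sequence, not a proven site. Both strands were searched, within 50 bp of each summit. The lines below give 60 bases on each side of the match, from the C57BL/6J reference (GRCm38.p6, the mm10 build), on the minus strand, which is the strand of Peg13, with the match in capitals. The first is chr15:72810022-72810161 and the second chr15:72810306-72810445.
Peg13 match downstream of the start: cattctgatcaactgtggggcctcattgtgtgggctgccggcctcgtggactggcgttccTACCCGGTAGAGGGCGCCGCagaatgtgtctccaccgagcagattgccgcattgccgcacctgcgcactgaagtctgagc
Peg13 match upstream of the start: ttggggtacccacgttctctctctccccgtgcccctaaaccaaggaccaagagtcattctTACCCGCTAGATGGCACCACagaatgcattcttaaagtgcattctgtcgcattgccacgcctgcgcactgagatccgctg

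The matches lay on the same strand with 264 bp between them, and the Peg13 start lay in that gap. The downstream match covered bases 223 to 242 after the start, and the upstream match was centred 52 bp before it. They shared 16 of 20 bases. The resemblance went on past the motif on the 3′ side, where 39 of the next 60 bases were the same, but not on the 5′ side, where 14 of 60 were, aligned without gaps. The downstream match held 3 CpG and the upstream match 1.

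Peg13 is annotated as a single exon of 4725 bp at chr15:72805600-72810324, minus strand, inside intron 16 of Trappc9. The promoter peak, chr15:72809940-72810543, covered its start. In the list of both pools its summits were at 72810129, 195 bp inside Peg13, and at 72810341, 17 bp upstream of the start. Both carried a score of 1000, the top value, as did 15 of the region's 16 summits and 93.9% of the whole list. The score is a scaled form of the irreproducible discovery rate (IDR, an estimate of how large a share of the peaks down to that rank do not recur between inputs). The pools' signal values for this peak, in the peak caller's own unit, were 168.8 in pool I and 63.8 in pool J. Among all peaks of the list the pool I value stood at percentile 45.7 and the pool J value at percentile 41.4, so the peak was of middling strength in both.

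The pools drew this peak differently. Pool I's own list held a single peak 616 bp wide with its summit 17 bp upstream of the start. Pool J's ranked list held a peak of 189 bp whose summit lay 59 bp upstream, over the upstream match and away from the downstream one. That pool J peak had a score of 245, below the threshold of 540 that corresponds to an IDR of 0.05, and pool J's thresholded list held no peak there. Weaker pool J peaks of the region did pass, down to a signal value of 14.8 against 63.8 here. Why this one did not was not tested. Of the region's 16 summits, 16 lay in a peak overlapped by pool I's thresholded list, 13 by pool J's and 15 by the list from the pooled reads, against 100% by pool I's, 96.9% by pool J's and 98.3% by the pooled reads' over all 44672. The 2 Peg13 promoter summits share 1 peak, so its absence from pool J's list was counted at both. Among peaks with signal like that peak's (the same 10% of the list) 99.9% overlapped a thresholded pool J peak. The other summit missing from pool J's, at 72494400, was in the weakest 10% by signal, where 79.2% did. Both Peg13 promoter summits lay on the inner side of the matches, 38 and 34 bp from the match centres. Over all 29290 summits with a match the median was 6.5 bp, and 2.89% lay more than 30 bp away. An interval with several summits is itself uncommon, at 0.556% of the 44425 intervals.

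**Figure D1:**
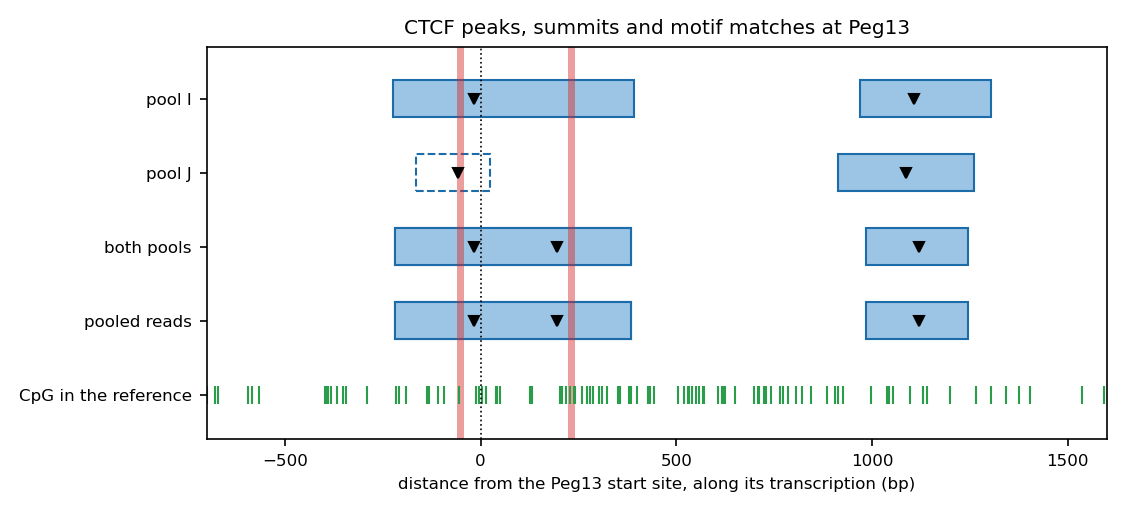
Peaks at the Peg13 start by list, against distance in bp from the start in the direction of its transcription. Boxes are peak intervals (dashed: pool J's ranked peak below the IDR threshold), black triangles are summits, red bands are the 2 motif matches and green ticks are CpG; pool I's box spans both matches and pool J's dashed box the upstream one.

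Another summit lay inside the gene, 1119 bp from the start, at 72809205 in the peak chr15:72809080-72809340. Its signal values were 177.9 in pool I and 68.8 in pool J, close to those of the promoter peak. This peak passed the threshold in all 4 thresholded lists. No motif match lay within 50 bp of its summit, where the best score was -1.4 (log2 odds). The bases around that summit, chr15:72809155-72809255 on the strand of Peg13, are printed to show what the reference holds there, with CpG in capitals.
Peg13 gene body summit: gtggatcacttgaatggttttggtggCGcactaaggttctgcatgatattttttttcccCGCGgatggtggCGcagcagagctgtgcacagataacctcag

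CpG content, which the choice of members did not use, was high at Peg13 beside all summits of the list, which were not limited to promoters. Counting 150 bases on either side, the downstream promoter summit had 16 CpG, the upstream one 14 and the gene body summit 10, against a median of 3 over all 44672 summits. The counts of the promoter summits were higher than 92.2% and 90.9% of all summits. Those 2 summits lay 212 bp apart in the same peak, so their windows overlap, yet they are counted separately below. At least 10 CpG were present at 5 of the 16 summits of the region, against 13.9% of all summits. The other 2 were the site upstream of Kcnk9, with 15, and the site at the Ago2 promoter, with 23, the highest of the region. Among all CpG-rich summits of this kind 45.7% had a motif match, against 65.6% of all summits. In the region 4 of the 5 had one.

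**Figure D2:**
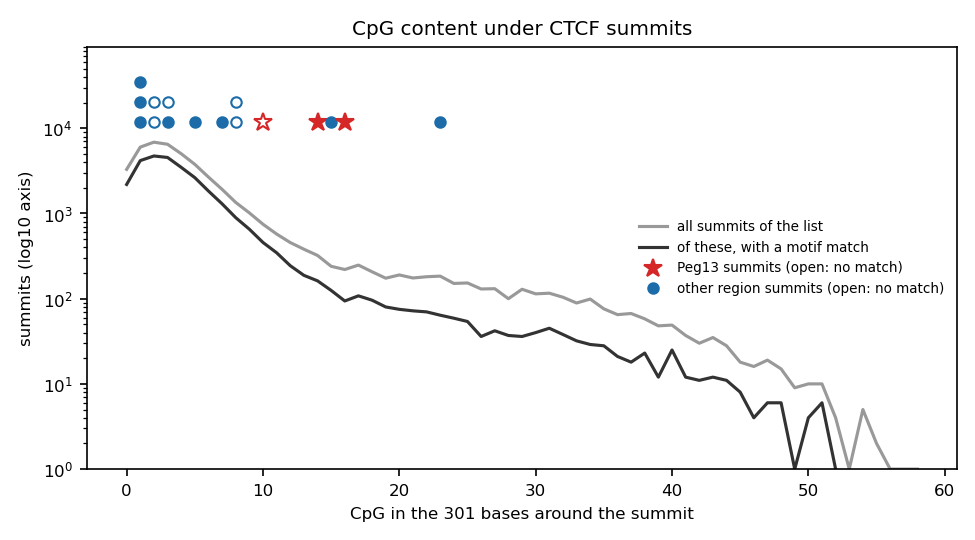
Number of summits in the list of both pools (log10 axis) against CpG within 150 bases on either side of the summit, as a grey line for all 44672 and a dark line for those with a motif match. Markers are the region's 16 summits, red stars for Peg13 and blue circles for the others, open where no match was found; their height carries no value, and the Peg13 stars stand at 10, 14 and 16.

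Across the whole region 10 of the 16 summits (62.5%) had a motif match, close to the 65.6% of all summits, while 0.918% of windows 1000 bp to the side of peaks on the even-numbered autosomes and X had one. Of the other matches 7 are given below to show how the sites around Peg13 differ, read 5′ to 3′ along the motif with the match in capitals and 5 bases on each side. They run along the chromosome from Kcnk9 to Ago2.
Kcnk9 intron, minus strand, chr15:72517221-72517250: cagatCACCCGCCAGAGGGCACCCTtgcac
Kcnk9 upstream, plus strand, chr15:72549563-72549592: tctcgGCGCCACCAGGGGGCGCTAGactcc
Trappc9 intron 20, plus strand, chr15:72614773-72614802: cttggCACCCAGCAGGTGGTGCTATtggga
Trappc9 upstream, plus strand, chr15:73069031-73069060: acatgTGACCACCAGGTGGCAGAAGgtgtt
Ago2 intron 1, plus strand, chr15:73155939-73155968: tacaaCTGCCACAAGGGGGCCCAGCtgctg
Ago2 promoter, minus strand, chr15:73185446-73185475: gagtcGCGCCGGGAGGTGGCGGTGTggtca
Ago2 upstream, minus strand, chr15:73187007-73187036: tccttCCACCAGCAGAGGGCAGTGTtgtgt

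The match upstream of Kcnk9 shared 18 of 20 bases with the learned motif, the most in the region, and scored 24.1. The matches upstream of Trappc9 (23.1) and of Ago2 (21.8) followed, while the upstream one at Peg13 scored 16.9 and the downstream one about the same. Each Peg13 match shared 11 bases with the motif. The matches upstream of Ago2, at the Ago2 promoter and in the Kcnk9 intron shared 11 too, and the rest shared 10 to 18. A CpG within the match was found at 5 of the 10, namely the 2 at Peg13, the 2 at Kcnk9 and the Ago2 promoter. The learned motif itself holds a CpG, and the share over all matches was not counted, so the count does not set the region apart.

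The strongest sites lay at Kcnk9, on either side of the 5′ end of Trappc9 and upstream of Ago2, and those around Peg13 were weaker. Kcnk9 encodes a potassium leak channel and is annotated at chr15:72501089-72546340, minus strand. It had a summit in intron 1 at 72517213 with signal values of 384.4 in pool I and 296.5 in pool J. A site 3225 bp upstream of its GENCODE start, at 72549565, had 370.8 in pool I and 224.6 in pool J. On the signal value of the list itself they stood at percentiles 99.7 and 95.8 of all peaks.

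Trappc9 encodes a subunit of a complex that tethers vesicles in membrane traffic and is annotated at chr15:72589620-73061204, minus strand. Its 471585 bp held 9 of the 16 summits, those at Peg13 included. The summit in intron 6, at 73023098, had 376.2 in pool I and 250.9 in pool J. The one in intron 4, at 73044708, had 281.1 in pool I and 180.9 in pool J and no motif match. The summit 7831 bp upstream of the nearest Trappc9 start, at 73069035, had 394.2 in pool I, the highest pool I value of the region, and 260.1 in pool J. The summits in introns 6 and 4 lay inside the gene, 38140 and 16530 bp from its RefSeq start, and only the site at 73069035 preceded the gene.

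Ago2 encodes the Argonaute protein that cleaves RNAs guided by small RNAs and is annotated at chr15:73095844-73184935, minus strand. The summit at its promoter, at 73185462 and 527 bp upstream of the start, had 336.6 in pool I and 192.8 in pool J. A further site 2086 bp upstream, at 73187021, had 383.8 in pool I and 284.8 in pool J. The summit in Ago2 intron 1, at 73155950, was far weaker, with 98.9 in pool I and 30.3 in pool J.

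The 7 summits between the site upstream of Kcnk9 and Trappc9 intron 6 had pool I values of 62.3 to 177.9 and pool J values of 27.2 to 76.5. In both pools each of these 7 was below every one of the 7 strong sites just described, while some were above the Ago2 intron 1 site. They comprised the 3 at Peg13, 2 in Trappc9 intron 20, at 72614780 and 72651881, 1 in intron 18, at 72706735, and 1 in intron 16, at 72863742. From the Peg13 summits the next summit was 102.5 kb away on the Kcnk9 side and 53.4 kb on the other. The widest gap of the region, 159.4 kb, lay between Trappc9 introns 16 and 6, and the gap from the site upstream of Trappc9 to Ago2 intron 1 was 86.9 kb. The remaining summit of the region, at 72494400 beyond the 3′ end of Kcnk9, had 67.1 in pool I and 24.6 in pool J and was, like the Peg13 promoter, absent from pool J's thresholded list.

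**Figure D3:**
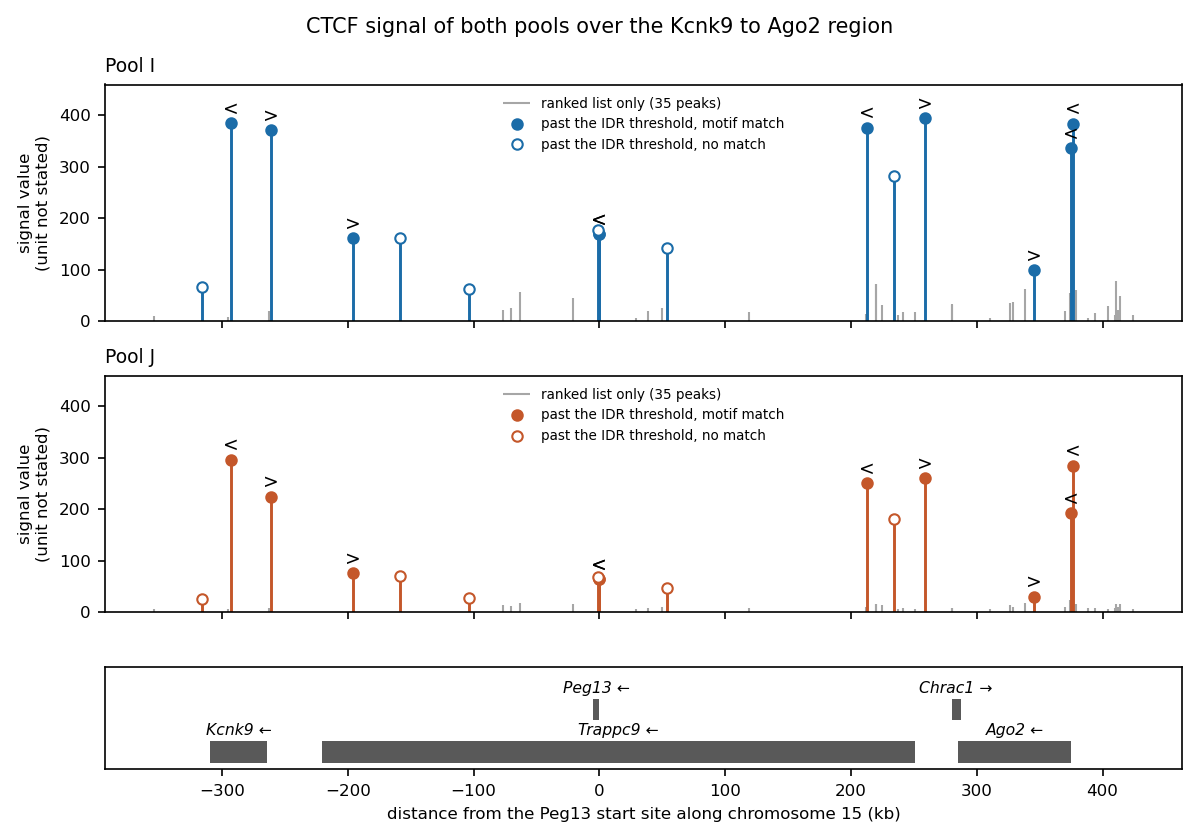
Signal values of pool I (upper panel) and pool J (middle panel) at the region's summits, against distance in kb from the Peg13 start along the chromosome, with the listed genes and their direction below. Filled circles have a motif match, with > for plus and < for minus strand, open circles have none, and grey lines are the 35 ranked peaks below the IDR threshold. The tallest values stand at Kcnk9, on either side of the 5′ end of Trappc9 and upstream of Ago2.

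By signal, 6 of the 7 summits above percentile 75 had a match and 4 of the other 9, counts too small to show a relation within the region. Over all peaks the share with a match went from 46.4% in the weakest 10% of peaks by signal to 86.3% in the strongest 10%. The strong peaks from which the motif was learned are among those counted, so this rise is not an independent result. By strand, 4 matches lay on plus and 6 on minus. Of the 9 neighbouring pairs 2 faced each other, Trappc9 intron 20 with the downstream Peg13 match and Ago2 intron 1 with the Ago2 promoter, while 2 faced apart and 5 pointed the same way. Over all chromosomes 24.3% of 29270 neighbouring pairs faced each other. Not every match carried a peak: of the 20 highest-scoring matches in the region 9 lay in a peak of the list of both pools and 12 in any ranked peak. These matches reached down to a score of 13.1. Those upstream of Kcnk9, Trappc9 and Ago2, which scored highest, all lay in a peak of the list of both pools. The like share over all chromosomes was not counted. The best match outside all ranked peaks, chr15:73038848-73038867, scored as high as the downstream Peg13 match.

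Pool I's values were mostly above pool J's, with a median log2 ratio of pool I over pool J of 1.09 over all peaks (SD over peaks 0.39). With unit and depth unknown, that ratio says nothing of binding strength. Relative to that median the Peg13 promoter peak was 0.31 higher on the log2 scale and the gene body peak 0.28 higher. Neither lay more than 2-fold from the median, nor did any other of the 16. Over all peaks 0.47% did, and 0.293% lay more than 2-fold above it. The 7 strongest summits of the region ran from -0.72 to -0.29, and the weaker ones from -0.01 to 0.61. The same trend held over all peaks, with a median log2 ratio of 1.38 in the weakest 10% and 0.60 in the strongest 10%. Against peaks of like signal (the same 10% of the list), the Peg13 promoter peak was 0.17 higher and the 16 summits ranged from -0.23 to 0.33.

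**Figure D4:**
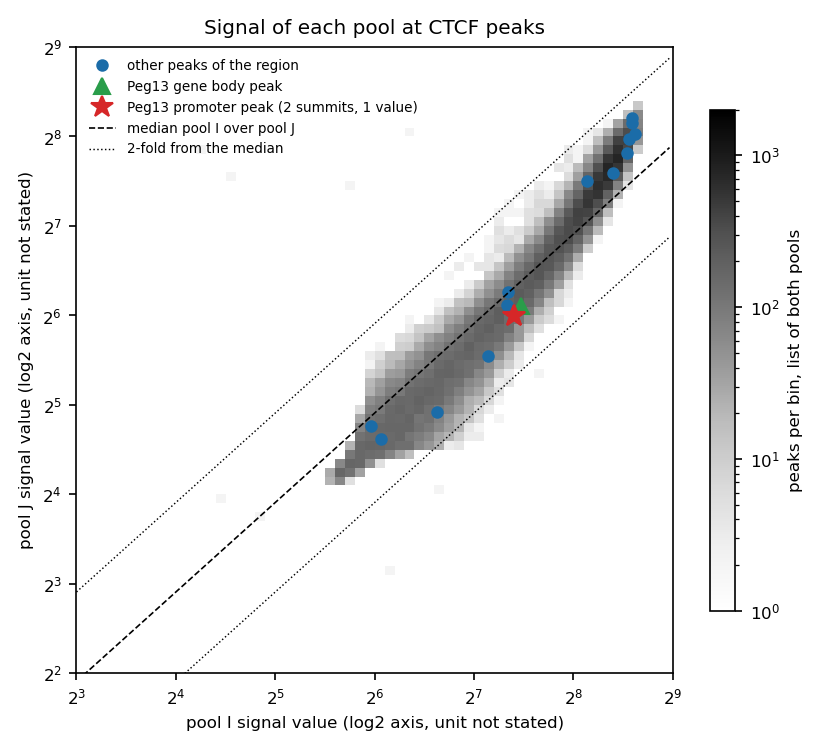
Signal value of pool J against pool I (log2 axes, unit not stated) at the peaks in the list of both pools, in grey by number of peaks per bin. The red star (Peg13 promoter), green triangle (Peg13 gene body) and blue circles (other region peaks) lie inside the dotted lines that mark 2-fold from the median ratio (dashed).

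At the promoters, defined as within 1000 bp of a GENCODE start site, 2 of the 5 listed genes had a summit in the list of both pools, Peg13 and Ago2. Over all genes this was 20.8% of 21938 protein-coding genes and 10.6% of 10155 lncRNA genes. The Ago2 call was present in all 4 thresholded lists, and the Peg13 call in all but pool J's. Chrac1 (chr15:73090392-73097554, plus strand), which encodes a histone-fold subunit of the chromatin accessibility complex, had a summit 60 bp upstream of its start in the ranked list, at 33.0 in pool I and 8.8 in pool J, which passed the threshold in pool I's list and in no other. Trappc9 had a ranked peak 21 bp from a start, at 17.3 in pool I and 6.5 in pool J, which passed in no list. At Kcnk9 the answer depended on the annotation, since RefSeq places the start at 72548614 and the upstream site then lay 951 bp from it.

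Beyond the list of both pools, the pools' own lists held further peaks. Pool I's thresholded list held 29 summits in the region, of 82131 in all, and pool J's 16, of 52658. All 16 pool J peaks overlapped a pool I peak, against 97.5% of all pool J peaks, and 16 of the 29 pool I peaks (55.2%) overlapped a pool J peak, against 63.1% of all pool I peaks. Of the 13 pool I peaks without a pool J peak, 11 were outside the list of both pools, with signal values of 24.6 to 78.7, and 2 of the 11 had a motif match. One of these matches, at the peak in Trappc9 intron 16 with its summit at 72859842, scored higher than both Peg13 matches, but the signal was 24.6 in pool I and 10.7 in pool J. The ranked list of both pools held 51 peaks in the region, of which 16 (31.4%) passed the threshold, against 33.5% of all ranked peaks. More than 2-fold from the ranked list's median ratio were 7 of the 51, against 16.4% of all ranked peaks. Among the 7, the overlapping peaks with summits at 73030091 and 73030291 carried the same values, 73.0 in pool I and 15.9 in pool J. The highest ratio was at the summit 73220766, upstream of Ago2, with 78.7 in pool I and 14.9 in pool J.

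At the threshold itself, the lowest score inside was 868, at the Kcnk9 intron site, and the highest outside was 512, at 73184100 in Ago2 intron 1, with 54.0 in pool I and 22.8 in pool J. The Kcnk9 intron site passed in the list of both pools and in each pool's own list with a score of 1000, but not in the list from the pooled reads, where it scored 441. Its signal was higher than 99.7% of all peaks. Among the strongest 1% of peaks in the list of both pools 26.8% were missing from the list of the pooled reads, against 1.45% of the others. At the region's edges the next summit outside lay 218582 bp beyond the boundary on the Kcnk9 side and 34831 bp beyond it on the Ago2 side.

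The density of summits was slightly above the average. The region had 20.4 summits per Mb, against 19.4 on chromosome 15 and 18.1 over the autosomes. The 3027 autosomal windows of the same length held a median of 12 summits, and 37.6% of them held at least 16. The median signal of the region's summits was 242.5, against 268.8 over the list.

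The promoters of other imprinted genes were compared from a list of 15 genes known for a region at a start that is methylated in the egg, and so on the maternal copy. In the list of both pools a summit lay within 1000 bp of a start at 3 of the 15, Peg13, Peg10 and Mest, which is near the shares over all genes. Peg10, a gene derived from a retrotransposon, had signal values of 262.5 in pool I and 105.7 in pool J. Mest, which encodes a hydrolase-like protein, had 190.1 in pool I and 84.6 in pool J at the stronger of its 2 summits. Neither had a motif match at these summits, whereas both Peg13 promoter summits, which lie in the same peak, did. This contrast does not set Peg13 apart. The Peg10 summit had 20 CpG around it and the stronger Mest summit 13. Among all summits with at least 10 CpG only 45.7% had a match. Both Peg13 matches were lost at the motif threshold that 0.1% of flanking windows passed. No promoter summit was found at Peg3, Snrpn, Kcnq1ot1, Airn, Plagl1, Grb10, Nnat, Mcts2, Inpp5f, Nap1l5, Zrsr1 or Impact in that list. Peg3 and Nnat had one in the list from the pooled reads, Nnat and Zrsr1 in pool I's list, and Nnat and Airn in pool J's.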

How the data were processed

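Per the labels, CTCF ChIP-seq libraries came from 2 pools of frozen cortex with 2 technical replicates each, grouped here as pool I and pool J. Per the deposited notes, the authors merged both libraries of a pool, aligned to mm10 and deposited 8 peak lists, 4 thresholded by IDR and 4 ranked, from pool I, pool J, both pools as replicates and the pooled reads. What aligner, caller and control were used was not given in the sources used here. The score deposited by the authors is a scaled IDR up to 1000. In the ranked lists the authors deposited the IDR as −log10 too, and the relation to the score held within 1 unit for 100% of peaks. The signal value deposited by the authors has no stated unit, and columns 15 and 19 of the ranked list of both pools hold it for pool I and pool J. That order was checked by intervals: 84.48% of first inputs equal a ranked pool I peak, 61.83% of second inputs a pool J peak, 0% crosswise.

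From these lists, summits were placed on GRCm38.p6 with GENCODE M21 basic annotation. A 20 bp motif was refined from the most enriched 8-mer in the strongest 1000 peaks of odd-numbered autosomes without chromosome 15, with a threshold that 1% of flanking windows passed, and was tested on simulated data. Overlap means at least 1 bp. The reference promoter table held 0 entries for the 5 genes, so peak sequence was read from the genome. The sequence of 1 motif match is not reported here. Named genes were the 5 listed, those nearest to or around a summit where a result turned on them, and the 15 imprinted genes. Members and lists were chosen with earlier results of these data known. Tools were Python 3.11.15, numpy 2.4.6, pandas 2.3.3, pysam 0.24.0 and matplotlib 3.10.9. Alternatives covered flank, IDR, list, motif, promoter window and centring.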

Additional observations from a re-analysis of the deposited data

How the results depend on the processing

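Most values held their size under the alternatives. The region's 16 summits became 29 in pool I's list and 20 in the list from the pooled reads. With a motif threshold that 0.1% of flanking windows passed, summits with a match fell to 3, against 10, and convergent pairs to 1, against 2, and the Peg13 matches were lost. Listed genes with a promoter summit numbered 1 with a 500 bp window, where Ago2 was lost, and 1 in pool J's list, where Peg13 was lost, against 2. With a 5000 bp window they numbered 3, and in pool I's list 3, so this count moved under most settings. Imprinted genes with a promoter summit numbered 10 with a 5000 bp window, 5 in the list from the pooled reads and 5 in pool I's list, against 3. The RefSeq start sites, an alternative chosen after seeing the data, gave 3 listed genes. The causes were not tested. No paired analysis was possible because both libraries of a pool were merged before peaks were called, so technical replicate numbers match no value. For the same reason no single library could be left out, and the pools' own lists stand in for leaving out a pool. With the read depth unknown, a peak missing from pool J's list is not shown to be absent.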
